A study of Mus musculus with 4 samples.

Results

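The 9 genes described here, Spi1, Cebpa, Cebpb, Irf8, Irf4, Klf4, Klf2, Maf and Runx3, encode transcription factors known for directing blood progenitors and monocytes towards macrophages, granulocytes or dendritic cells. They were taken by name and each matched 1 of the 27998 genes of the count matrices. Their RNA was counted by droplet single-cell sequencing of 3′ ends in CD45+ leukocytes, which beads had enriched from a shin muscle, the tibialis anterior, of male mice of 8-12 weeks after injury with cardiotoxin, a toxin that destroys myofibres and sets off regeneration. Control mice were Bach1 fl/fl littermates, and mice labelled KO were Bach1 fl/fl Lyz2-Cre. Both groups thus carried the floxed allele, with loxP sites around exon 4, and the KO mice also carried Cre under the promoter of Lyz2, a lysozyme gene active in monocytes, macrophages and neutrophils, so the deletion was not directed at lymphocytes or stroma. Each of the 4 groups, control and KO at 2 days after injury (dpi2) and at 4 days (dpi4), was 1 library. The study describes individual mice for this experiment and not a pool. In each comparison of 2 libraries the condition and the library cannot be told apart.

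PU.1, encoded by Spi1, and C/EBPα, encoded by Cebpa, set up the myeloid programme in progenitors, and C/EBPβ carries it on in mature monocytes, macrophages and granulocytes, where inflammation induces it. IRF8 favours monocytes, type 1 dendritic cells and plasmacytoid dendritic cells over granulocytes, and IRF4 is known for type 2 dendritic cells, lymphocytes and alternatively activated macrophages. KLF4 acts in the differentiation of monocytes and KLF2 in the quiescence and trafficking of leukocytes. c-MAF, encoded by Maf, restrains proliferation of macrophages and is known for IL-10 production, and RUNX3 acts in cytotoxic lymphocytes and in dendritic cells. In injured muscle, Ly6C-high monocytes enter early and become macrophages that first clear debris and later support new fibres.

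The bases in front of these genes show which of them carry short recognition sequences of such factors. For the 9 genes, RefSeq windows on GRCm38.p6 were at hand for 7, with Spi1 and Maf unmatched, and 11 sequence motifs were searched on both strands in the 250 bases before the start. The windows below belong to the gene with the largest difference between genotypes in macrophages (Cebpb), the other gene that differed there at dpi2 (Klf4), a gene that differed between days in macrophages of both genotypes (Irf8) and a gene with matches to the motif of its own family (Runx3, the distal of 2 windows). Capitals mark the motif matches on either strand.
Cebpb, chr2:167688665-167688914, plus strand: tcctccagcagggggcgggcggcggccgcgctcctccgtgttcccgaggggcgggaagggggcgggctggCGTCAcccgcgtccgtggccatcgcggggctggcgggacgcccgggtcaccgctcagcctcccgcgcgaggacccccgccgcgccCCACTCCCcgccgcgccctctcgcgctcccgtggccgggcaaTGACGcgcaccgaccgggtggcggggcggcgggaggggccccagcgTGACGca
Klf4, chr4:55532476-55532725, minus strand: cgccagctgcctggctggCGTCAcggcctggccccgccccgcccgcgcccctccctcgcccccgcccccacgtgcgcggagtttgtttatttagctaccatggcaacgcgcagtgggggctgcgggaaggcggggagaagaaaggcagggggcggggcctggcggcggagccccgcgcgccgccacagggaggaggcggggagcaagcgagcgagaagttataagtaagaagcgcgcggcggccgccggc
Irf8, chr8:120736108-120736357, plus strand: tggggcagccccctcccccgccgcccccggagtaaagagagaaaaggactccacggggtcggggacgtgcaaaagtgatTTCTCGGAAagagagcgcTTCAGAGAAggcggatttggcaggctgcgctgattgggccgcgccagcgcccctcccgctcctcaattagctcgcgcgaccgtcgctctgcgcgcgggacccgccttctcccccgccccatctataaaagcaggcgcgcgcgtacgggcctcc
Runx3, chr4:135120395-135120644, plus strand: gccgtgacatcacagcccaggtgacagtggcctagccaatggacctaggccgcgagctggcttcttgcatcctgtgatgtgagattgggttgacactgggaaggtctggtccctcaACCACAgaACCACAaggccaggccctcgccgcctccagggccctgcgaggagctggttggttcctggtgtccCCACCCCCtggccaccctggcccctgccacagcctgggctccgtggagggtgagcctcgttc

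The Cebpb window held the core of the cyclic AMP response element, TGACG, 3 times, with its first base 53 and 7 bases before the start on the plus strand and 180 bases before it on the minus strand. It also held 1 KLF motif, CCACNCCC. The Klf4 window held TGACG once, on the minus strand. TGACG is short, and 17.8% of all 32851 windows of this length held it, against 1.55% for the full element TGACGTCA, which contains it and which none of the members' windows held. The Irf8 window shown held the STAT motif TTCNNNGAA 2 times, a motif found in 7.02% of windows. Another Irf8 window, at chr8:120738389-120738638, held 0 matches to any motif. The Runx3 window shown held the RUNX motif TGTGGT 2 times, on the minus strand, and CCACNCCC once. These motifs occurred in 14.0% and 15.9% of windows. The other Runx3 window, at chr4:135152295-135152544, held 0 matches. The Klf2 window held the MEF2 motif (in 3.20% of windows) and TGACG, the Irf4 window held CCACNCCC, and the Cebpa window held none of the motifs. No member's window held the AP-1 motif TGANTCA (6.75% of windows) or GCTGANTCA (1.02%), the longer form of it that MAF and BACH proteins bind. The other motifs searched were GAGGAAGT for PU.1 (2.44% of windows), TTGCNNAA for C/EBP (9.56%) and the interferon-stimulated response element, named ISRE, for IRF (2.98%), and none was in a member's window. A match describes these letters only, and binding was not measured.

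The 4 libraries held from 4177 to 6602 barcodes and from 57010520 to 80228489 UMIs, that is, distinct RNA molecules, and 3433 to 5721 cells were kept in each. Libraries shared from 1 to 11 kept barcode sequences per pair. Cells were clustered without the 9 genes and named from fixed markers, since names of the authors were not used here. The classes compared in depth were monocytes (2672 control and 1013 KO cells at dpi2, 51 and 69 at dpi4), macrophages (1816 and 1021 at dpi2, 3015 and 2524 at dpi4), neutrophils (633, 788, 128 and 36) and dendritic cells defined by Cd209a (255, 201, 348 and 352). Median UMIs per macrophage were from 15540 to 18507 in 3 libraries and 26983 in the remaining one, labelled KO at dpi2. Ptprc, which encodes CD45, was at 530 to 635 CPM (counts scaled to a class or library total of 1000000 UMIs) over all barcodes. Bach1 was at 187 to 217 CPM in all 4 libraries, and 3′ counts of the whole gene do not show the loss of an internal exon, so this checks nothing. Lyz2, which the Cre knock-in disrupts, was at 9388 and 15845 CPM in the control libraries and at 17.5 and 21.6 CPM in the libraries labelled KO.

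Values below are UMIs of a gene over all UMIs of a cell class in a library, as CPM, so they compare a gene between classes and libraries and not genes with each other. In bulk sums of this kind, fewer expressing cells and less RNA per cell cannot be told apart. Intervals are exact 95% counting intervals, and with 1 library per group no test was run. A ratio is called higher or lower where it rested on 50 UMIs or more in both libraries together, reached 1.5-fold and had an interval that did not hold 1.

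**Figure D1:**
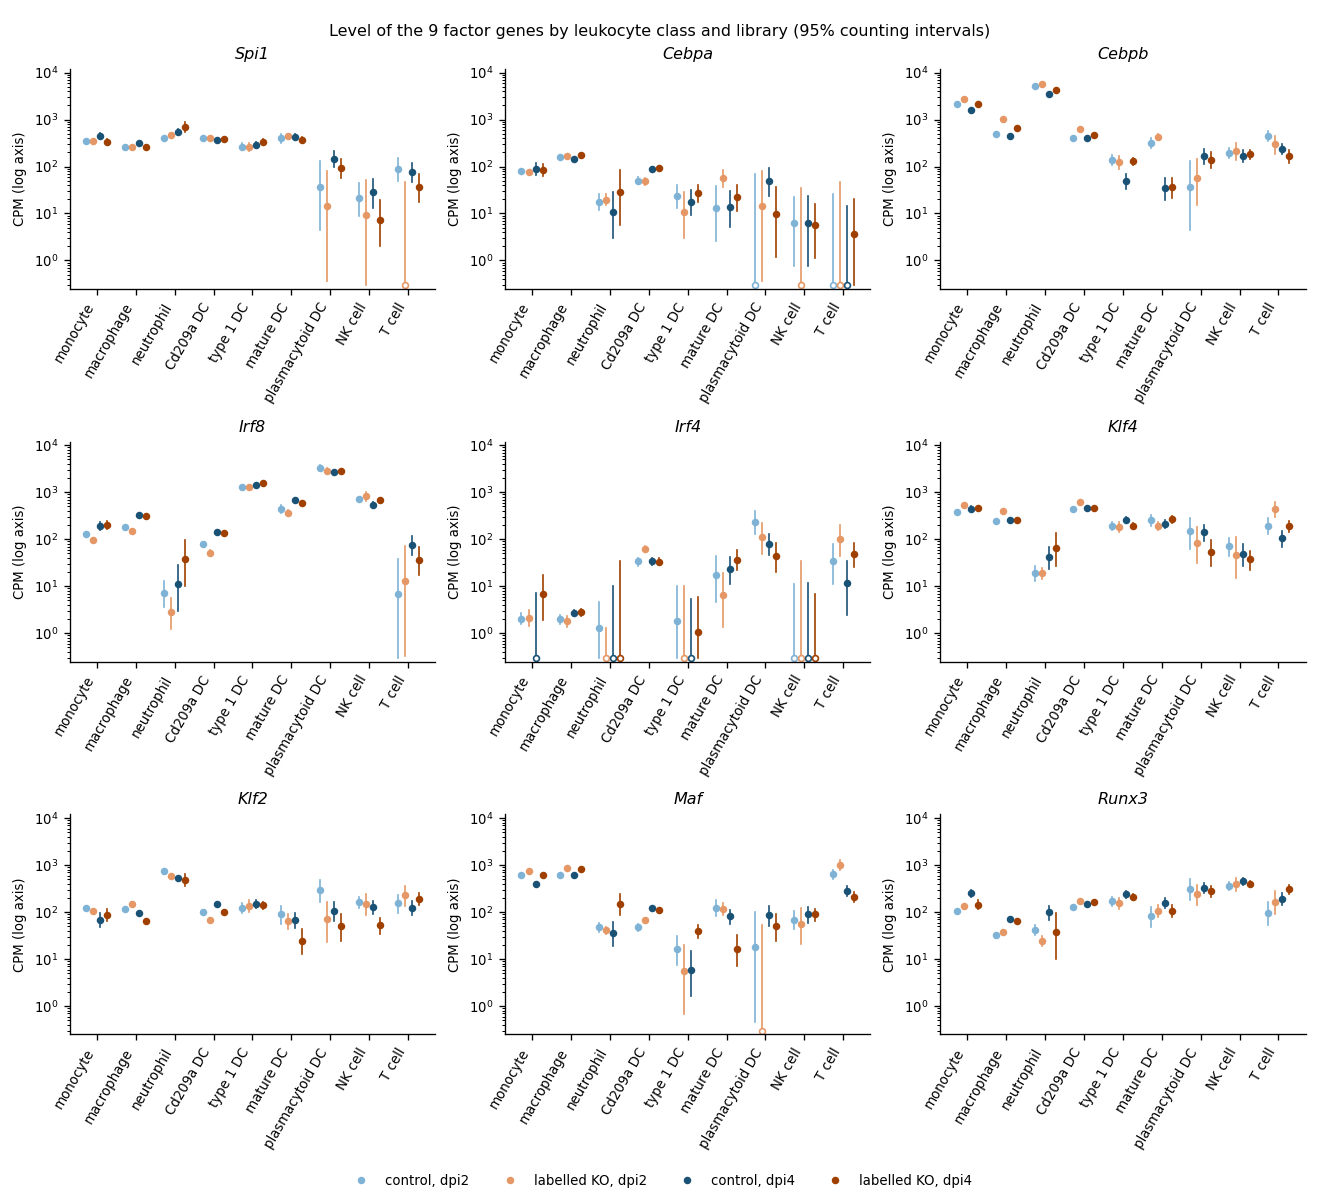
CPM of each of the 9 genes (log axis) in 9 leukocyte classes, 1 point per library with its 95% counting interval, and an open point at the foot where no UMI was seen. Cebpb was highest in neutrophils (3447 to 5623 CPM) and Irf8 in plasmacytoid dendritic cells (2716 to 3289 CPM), and Maf was high in macrophages (625 to 871 CPM) and monocytes (390 to 760 CPM).

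Medians and ranges over libraries use class sums of at least 30 cells, unless cell numbers are given. Among the founding myeloid factors, Spi1 was spread over all myeloid classes. Its median over the libraries was 499 CPM in neutrophils, 399 in mature dendritic cells, 393 in Cd209a dendritic cells, 352 in monocytes, 287 in type 1 dendritic cells and 262 in macrophages. Mature dendritic cells (365 to 433 CPM), Cd209a dendritic cells (368 to 407 CPM) and monocytes (326 to 444 CPM) overlapped. NK cells (7.44 to 28.9 CPM) and T cells (37.1 to 77.4 CPM) lay far below. In macrophages, Spi1 was at 263 CPM in control dpi2, 259.8 in KO dpi2, 322 in control dpi4 and 261 in KO dpi4, so control dpi4 stood above the other 3 libraries.

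Cebpa had its highest level in macrophages, at 156, 164, 143 and 177 CPM in control dpi2, KO dpi2, control dpi4 and KO dpi4. Monocytes were at 78.4, 77.2, 90.7 and 85.0 CPM in the same order, below every macrophage value. Cd209a dendritic cells followed with 48.4 to 95.2 CPM, a range that overlapped that of monocytes, and T cells held 0 UMIs (up to 11.6 CPM) and 1 UMI (3.71 CPM) in the 2 libraries with at least 30 of them.

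Cebpb ran the opposite way among these classes. In neutrophils it was at 5279, 5623, 3447 and 4157 CPM in control dpi2, KO dpi2, control dpi4 and KO dpi4, and in monocytes at 2157, 2683, 1592 and 2119 CPM, so every neutrophil value was above every monocyte value. In macrophages it was at 480.4 (95% interval 473 to 488), 1020.0 (1008 to 1032), 447 (442 to 453) and 675 (668 to 683) CPM, with both libraries labelled KO above both control libraries. In Cd209a dendritic cells it was at 411, 613, 402 and 459.7 CPM, with KO dpi2 highest. Mature dendritic cells had the lowest level at dpi4, 34.7 and 36.7 CPM, but were at 317 and 420.3 CPM in the 24 and 26 cells of dpi2.

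Of the interferon regulatory factors, Irf8 peaked outside the monocytes and macrophages. Plasmacytoid dendritic cells, with 7 to 25 cells per library, held 3289, 2798, 2716 and 2847 CPM, the highest of all classes, and type 1 dendritic cells and NK cells held medians of 1458 and 673 CPM. In macrophages Irf8 was at 185, 153, 325 and 315 CPM and in monocytes at 131, 97.4, 193 and 199 CPM, in the order control dpi2, KO dpi2, control dpi4 and KO dpi4. Both dpi4 libraries were above both dpi2 libraries in each class. Neutrophils, which IRF8 is known to disfavour, held only 4 to 11 UMIs of it per library, 2.84 to 37.6 CPM.

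Irf4 was close to undetected in the macrophage lineage. Macrophages held 71, 53, 153 and 126 UMIs of it in control dpi2, KO dpi2, control dpi4 and KO dpi4, that is, 1.98, 1.82, 2.69 and 2.77 CPM. Monocytes held 60 and 31 UMIs at dpi2 (2.06 and 2.16 CPM), 0 UMIs in control dpi4, which allows up to 5.79 CPM, and 4 UMIs in KO dpi4. Cd209a dendritic cells, cells of the kind IRF4 is known for, were at 33.8, 61.7, 33.7 and 33.7 CPM, with KO dpi2 above the other 3 libraries. Plasmacytoid dendritic cells, with 7 to 25 cells per library, were above them in every library, with values given under other observations. T cells were at 11.6 and 48.3 CPM at dpi4, and NK cells had 0 UMIs in all 4 libraries, which allows up to 5.58 to 28.1 CPM.

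The Krüppel-like factors divided neutrophils from the other myeloid cells in opposite directions. Klf4 was at 18.8 to 65.8 CPM in neutrophils and at 377 to 535 CPM in monocytes, 241 to 406 CPM in macrophages and 445 to 625 CPM in Cd209a dendritic cells. Endothelial cells, at 419 and 628 CPM at dpi4, lay just below and just above the range of the last of these. Klf2 was highest in neutrophils, at 762, 590.5, 519.7 and 489 CPM in control dpi2, KO dpi2, control dpi4 and KO dpi4, followed by endothelial cells at 417 and 596 CPM. In macrophages Klf2 was at 118, 147, 98.1 and 64.9 CPM and in monocytes at 120.3, 106, 69.4 and 86.7 CPM, and these ranges overlapped.

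Among classes of at least 30 cells in a library, Maf was highest in macrophages, at 626, 871, 625 and 819.5 CPM, and in monocytes, at 617, 759.7, 389.7 and 619 CPM, in the order control dpi2, KO dpi2, control dpi4 and KO dpi4. The 2 classes overlapped, and in both the libraries labelled KO were above the control library of the same day. T cells had 212 and 283 CPM at dpi4, but in the 29 and 14 cells of dpi2 they had 641 and 1015 CPM, above macrophages and monocytes of the same libraries. Type 1 dendritic cells had the lowest median, 16.7 CPM.

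Runx3 was highest in NK cells (365 to 450.1 CPM) and T cells (194 and 308 CPM at dpi4), the cytotoxic and T lymphocytes in which it is known to act. Among myeloid classes, type 1 dendritic cells held 171 to 239.8 CPM and Cd209a dendritic cells 129 to 175 CPM. Monocytes were at 106, 134, 255 and 144 CPM and macrophages at 31.9, 37.7, 73.0 and 65.2 CPM in control dpi2, KO dpi2, control dpi4 and KO dpi4. Every monocyte value was thus above every macrophage value.

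The contrast of macrophages with monocytes within each library describes the members along the step that the 9 factors are known for. For 3 genes the classes differed by at least 1.5-fold in all 4 libraries. Cebpb in macrophages was 0.223, 0.380, 0.281 and 0.319 times its monocyte level in control dpi2, KO dpi2, control dpi4 and KO dpi4, so the gap was smallest in KO dpi2. Runx3 was 0.301, 0.282, 0.287 and 0.453 times as high in macrophages. Cebpa was 1.99 (1.90 to 2.09), 2.13 (1.99 to 2.28), 1.58 (1.18 to 2.15) and 2.09 (1.58 to 2.82) times as high in macrophages. Runx3 kept 1.5-fold in all 4 libraries under all 7 other settings tried. Cebpb in KO dpi4 lost it when each library was clustered by itself, at a log2 ratio of -0.44. Cebpa lost it at dpi4 with a mitochondrial share under 20%, at 0.50 in control and 0.45 in KO, and in KO also when each library was clustered by itself, at 0.38.

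Irf8 was higher in macrophages in each library as well, at log2 ratios of 0.50, 0.65, 0.75 and 0.66, and passed 1.5-fold in 3 of them, but 2 of these calls were lost under another setting, in control dpi4 with separate clustering of the libraries (0.45) and in KO dpi2 with median-of-ratios scaling (0.40). Klf4 was lower in each, at -0.65, -0.40, -0.82 and -0.84, and also passed in 3, of which the call in control dpi2 was lost under 5 of 7 settings and that in control dpi4 under 1 of 7. Spi1 was at -0.43, -0.44, -0.46 and -0.32, and passed in none. In all, 4 of 9 members passed in control dpi2 (43.6% of all genes tested), 4 in KO dpi2 (39.9%), 6 in control dpi4 (19.3%) and 5 in KO dpi4 (22.7%). At dpi2 the median gene was itself 0.25 higher in macrophages on the log2 scale. Relative to it, Cebpa was still higher (0.75 in control and 0.84 in KO) and Klf4 (-0.90 and -0.65) and Spi1 (-0.68 in both) lower, all past 1.5-fold, while Irf8 was higher by only 0.25 and 0.40, and Maf turned from 0.02 and 0.20 to -0.23 and -0.05. In control dpi4 Maf passed, at 1.60 (1.40 to 1.85) times its monocyte level, and kept 1.5-fold under all 7 other settings. Macrophage markers were measurable in cells named monocytes, at a sum of 3886 and 4445 CPM at dpi2 against 14010 and 8768 CPM at dpi4, with 0 of 10 markers at 0, and macrophages themselves were at 11507 to 40099 CPM. The part of this mixed state in the dpi4 ratios was not tested.

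**Figure D2:**
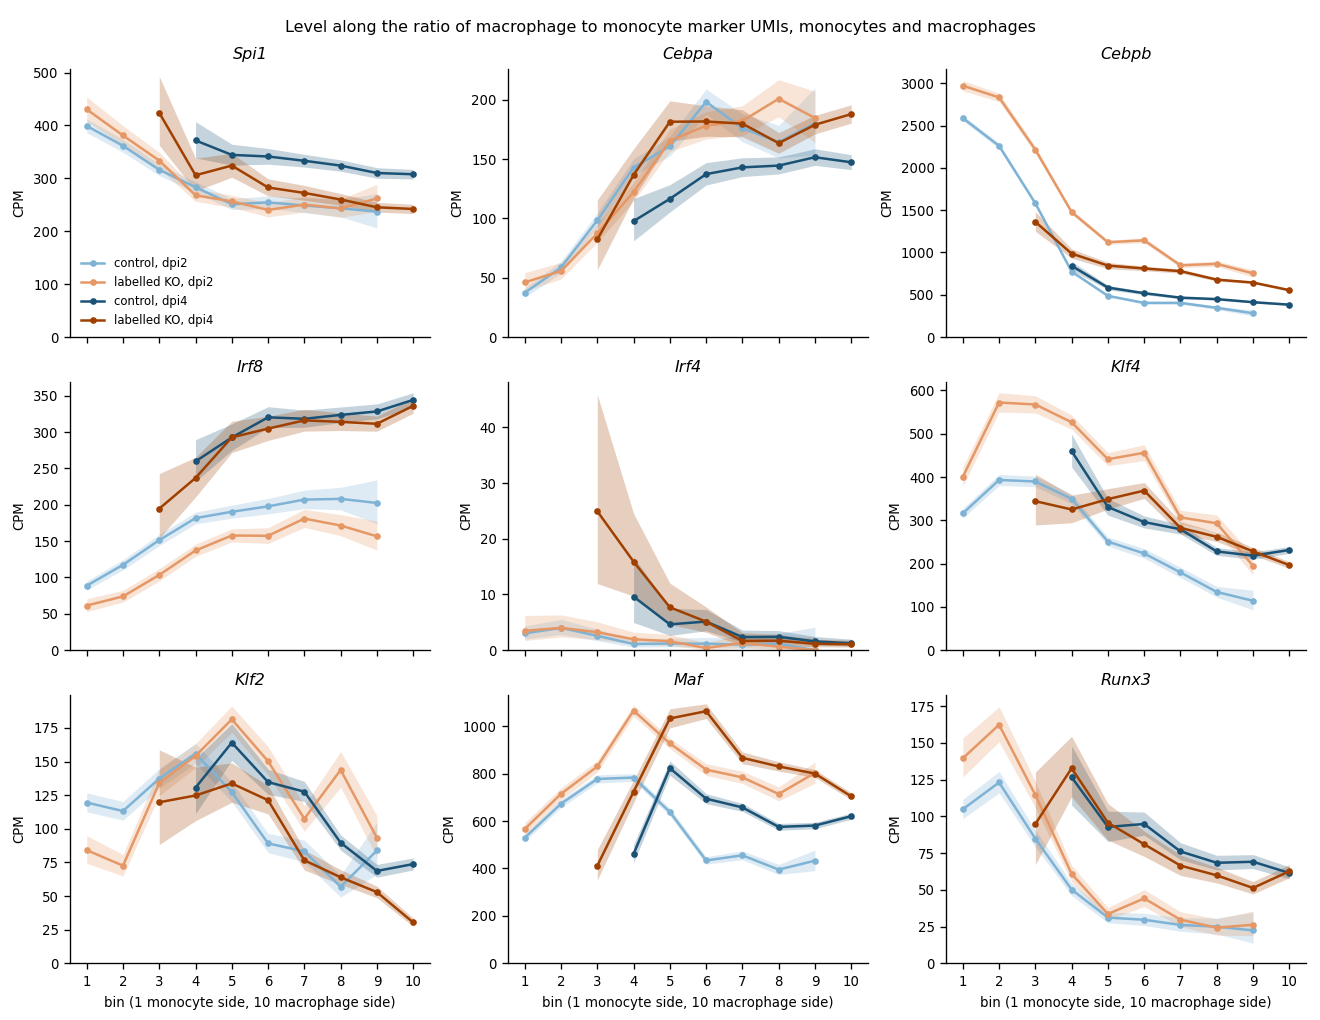
CPM of the 9 genes (linear axis from 0) in 10 bins of monocytes and macrophages ordered by the balance of macrophage over monocyte markers, 1 line per library with its 95% counting interval as a band and bins under 30 cells left out. Cebpb fell from 2588 CPM in the first bin to 282 in the 9th in control dpi2 and from 2971 to 753 in KO dpi2, and Cebpa ran from 37.4 to 180.1 CPM in control dpi2.

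Ordering monocytes and macrophages by their summed macrophage markers against monocyte markers showed the course of each gene between these ends. The bins are ranges of this balance and not cell types, and the first 2 held under 30 cells of each dpi4 library. Along the order, Cebpa went from 37.4 CPM in bin 1 to 180.1 CPM in bin 9 in control dpi2 and from 46.2 to 185 CPM in KO dpi2, with most of the gain by bin 5 (161 and 166 CPM). Irf8 went from 88.7 to 202 CPM in control dpi2 and from 61.4 to 157 CPM in KO dpi2. These genes were higher towards the macrophage end.

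Cebpb, Runx3 and Spi1 had their lowest levels towards that end. Runx3 went from 105 to 22.4 CPM in control dpi2 and from 139 to 26.2 CPM in KO dpi2, and Spi1 from 399 to 237 CPM and from 431 to 262 CPM. Klf4 and Maf did not run in 1 direction. Klf4 was at 316 CPM in bin 1, 393 in bin 2 and 114 in bin 9 in control dpi2, and at 400.5, 572 and 195 CPM in KO dpi2. Maf had its highest value in the middle of the order, 784 CPM in bin 4 of control dpi2, 1066 in bin 4 of KO dpi2, 823 in bin 5 of control dpi4 and 1064 in bin 6 of KO dpi4. Irf4, rare as it was, was higher at the monocyte end of both dpi4 libraries, with 24.9 CPM in the first filled bin of KO dpi4 (bin 3, 46 cells) against 1.1 CPM in bin 10.

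Between dpi2 and dpi4, Irf8 and Runx3 were the members that passed 1.5-fold in macrophages of both genotypes. Irf8 was 1.76 (1.71 to 1.81) times as high at dpi4 in control and 2.06 (1.99 to 2.13) times in KO, and Runx3 was 2.29 (2.14 to 2.44) and 1.73 (1.61 to 1.85) times as high. In control macrophages these were the 2 of 9 members that passed 1.5-fold, where 35.4% of all genes did. In KO macrophages 6 of 9 passed, where 32.6% of all genes did. Macrophage clusters with at least 30 cells in both libraries of a day numbered 4 at dpi2 and 7 at dpi4. Ratios between days within clusters are not given, and the part of cluster make-up in the class ratios was not tested.

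The other 4 in KO macrophages were Irf4, higher by 0.61 on the log2 scale on 53 and 126 UMIs, and Cebpb, Klf4 and Klf2, lower by log2 ratios of -0.59, -0.67 and -1.18. In control macrophages the same 3 genes were at -0.10, 0.07 and -0.26. Maf was nearly equal on both days, at -0.00 in control and -0.09 in KO. The calls of Irf8 in both genotypes and of Klf2 in KO kept 1.5-fold under all 8 other settings tried. Those of Cebpb, Klf4 and Irf4 in KO did not, and came to as little as -0.53, -0.58 and 0.55. When monocytes and macrophages were pooled, Runx3 lost 1.5-fold in both genotypes, from 1.19 to 0.20 in control and from 0.79 to -0.07 in KO. Monocytes, in which it was higher than in macrophages, made up 46.7% of control cells at dpi2 and 1.22% at dpi4. In KO they made up 27.5% and 2.01%, and the part of these shares in the pooled ratios was not tested.

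In monocytes, of which dpi4 held only 51 and 69, 3 of 9 members passed in control (11.4% of all genes) and 1 of 9 in KO (16.8%). Runx3 was 2.40 (2.00 to 2.85) times as high at dpi4 in control monocytes and 1.07 (0.85 to 1.34) times in KO. Klf2 was 0.577 and Maf 0.631 times as high in control, against 0.819 and 0.815 times in KO. The call of Klf2 was lost under 6 of 8 other settings, down to a log2 ratio of -0.15. Summed macrophage markers in control monocytes were 3886 CPM at dpi2 and 14010 CPM at dpi4, and their part in these ratios was not tested. Irf8 was 1.47 times as high at dpi4 in control, just under the size rule, and 2.05 (1.68 to 2.48) times in KO.

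**Figure D3:**
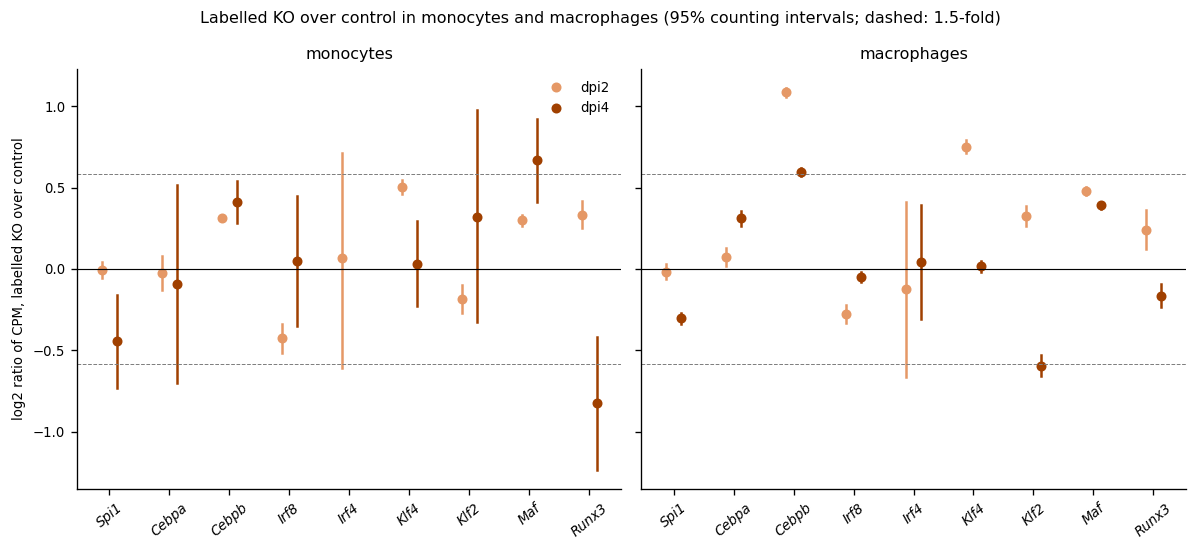
Log2 ratio of the library labelled KO over the control library of the same day for the 9 genes in monocytes and macrophages, with 95% counting intervals and dashed lines at 1.5-fold. Irf4 in monocytes at dpi4, with no control UMI, has no point. Cebpb in macrophages lay at 1.09 at dpi2 and 0.59 at dpi4, and Klf2 in macrophages at 0.33 and -0.59.

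In macrophages at dpi2, the member with the largest ratio between the libraries of mice with and without Cre in myeloid cells was Cebpb. In this class it was 2.12 (2.08 to 2.16) times as high in KO as in control at dpi2 and 1.51 (1.49 to 1.54) times at dpi4. In monocytes the ratios were 1.24 (1.23 to 1.26) and 1.33 (1.22 to 1.46), above 1 but under the size rule. After every cell had been thinned to 2000 UMIs, 56.0% of control and 75.6% of KO macrophages at dpi2 held a Cebpb UMI, and 50.3% and 65.6% at dpi4 (unthinned 95.1%, 99.0%, 93.1% and 95.3%, in 1787, 1015, 2959 and 2464 cells of that depth). Mature dendritic cells at dpi4, the sums with the least Cebpb, held one in 0% (exact upper bound 9.03%) and 11.5% of thinned cells, at median depths of 9646 and 8785 UMIs. The dpi2 call ended under 1 of 8 other settings, the pooling of monocytes with macrophages, at a log2 ratio of 0.35. The dpi4 call lay at the threshold, and 5 settings brought it to between 0.53 and 0.58. The 8 neutrophil markers summed to 107 CPM in control and 330.4 CPM in KO macrophages at dpi2, and to 97.0 and 74.2 CPM at dpi4. In monocytes at dpi2 they summed to 222 and 425 CPM. Their part in the Cebpb ratios was not tested.

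Macrophages of the 2 genotypes were made of different clusters. At dpi2, 60.4% of control macrophages were in the cluster led by Spp1 and Pdpn, against 16.7% of KO macrophages, and 45.3% of KO macrophages were in a cluster with Jag1 and Ppbp among its leading genes, against 5.01% of control. Within clusters, Cebpb was higher in KO in all 4 macrophage clusters at dpi2, at 423 against 596 CPM in the Spp1 and Pdpn cluster, 602 against 1042 in the Gja1 and Ccl8 cluster, 904 against 1205 in the Jag1 and Ppbp cluster and 335 against 650.3 in the cluster led by Top2a and Birc5, with control first. These log2 ratios, 0.41 to 0.96, were all smaller than the 1.09 of the whole class. At dpi4 Cebpb was higher in KO in all 7 macrophage clusters (0.35 to 0.93), 6 of which passed 1.5-fold, and at dpi2 in all 4 monocyte clusters (0.17 to 0.45). In bins of the marker order it was higher in all 9 shared bins at dpi2, by at least 0.20, and all 7 at dpi4, by 0.23 to 0.74. In bin 5 at dpi2 it was at 487 CPM in control and 1121 CPM in KO.

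**Figure D4:**
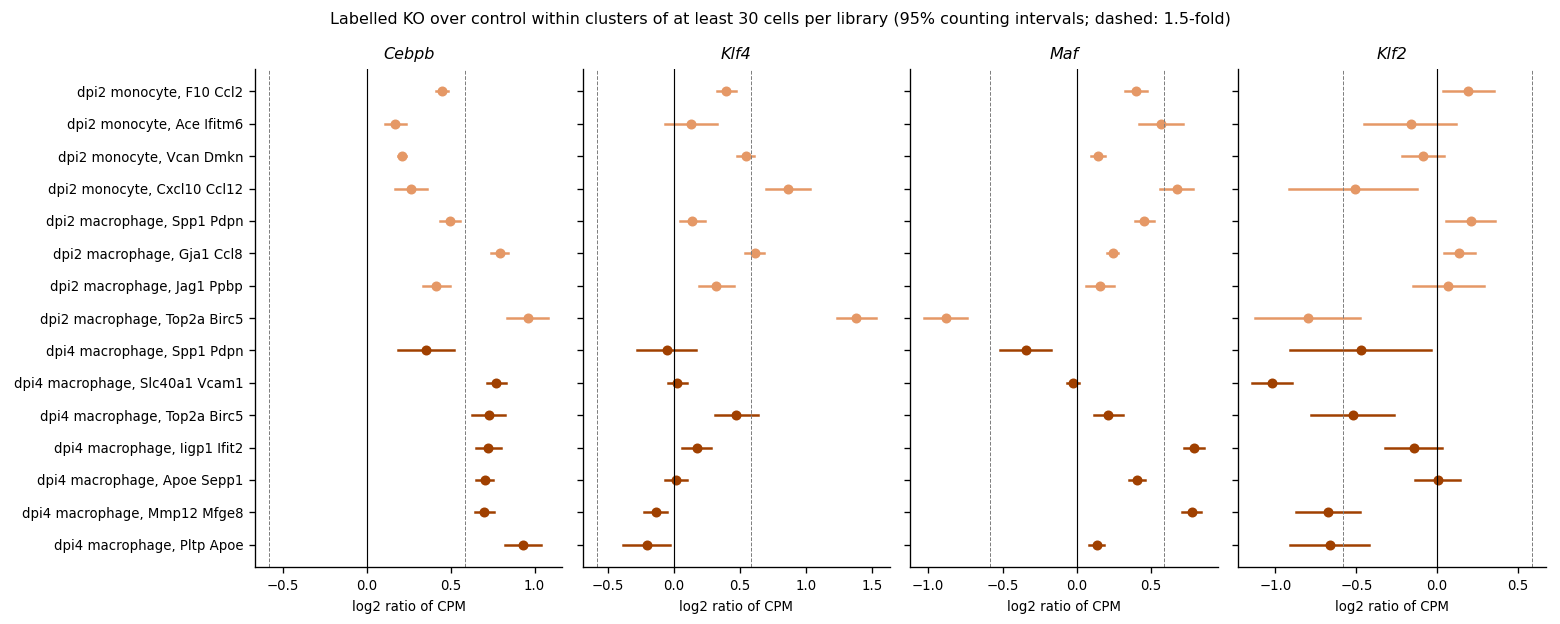
Log2 ratio of KO over control for Cebpb, Klf4, Maf and Klf2 within single monocyte and macrophage clusters with at least 30 cells in both libraries, 1 point per cluster with its 95% counting interval. Cebpb lay above 0 in every cluster, while Klf2 lay between -1.02 and 0.01 in the 7 macrophage clusters of dpi4.

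Klf4 was the other member past 1.5-fold in macrophages at dpi2, where 11.1% of all genes passed and 2 of 9 members did. It was at 241 CPM in control and 406 CPM in KO, a ratio of 1.68 (1.64 to 1.73), and in monocytes at 377 and 535 CPM, a ratio of 1.42. Thinned to equal depth, 31.8% of control and 42.0% of KO macrophages held a Klf4 UMI (unthinned 77.3% and 89.6%), against 3.65% to 9.09% of neutrophils, whose median depths were 2308 to 3416 UMIs. It was higher in KO in all 4 macrophage and all 4 monocyte clusters at dpi2, yet by only 0.14 in the cluster led by Spp1 and Pdpn, which held most control macrophages. The class log2 ratio of 0.75 was 0.57 when monocytes and macrophages were pooled, which is under the rule. At dpi4 its class sums were level in macrophages (252 and 255 CPM) and in monocytes (446 and 456 CPM). Single macrophage clusters, 7 at dpi4, ran from -0.21 to 0.47, with 2 intervals above 1 and 2 below.

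At dpi4, 2 of 9 members passed in macrophages, where 7.58% of all genes did, and the second was Klf2. It was at 98.1 CPM in control and 64.9 CPM in KO, a ratio of 0.662 (0.633 to 0.693), while at dpi2 it was higher in KO, at 118 and 147 CPM. Within the 4 macrophage clusters of dpi2, however, the log2 ratios ran from -0.80 to 0.21, all below the 0.33 of the class. Of 7 macrophage clusters at dpi4, 5 had an interval below 1 and none had one above it. In the cluster led by Slc40a1 and Vcam1, which held 33.7% of KO and 11.4% of control macrophages, it was at 164 CPM in control and 80.7 in KO, and in the cluster led by Apoe and Sepp1, which held 37.2% of control and 13.6% of KO macrophages, it was level at 119.97 and 120.5 CPM. The call ended under 5 of 8 other settings, at log2 ratios of -0.58 to -0.47.

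Maf, Cebpa and Spi1 differed by less than 1.5-fold in macrophages. Maf was 1.39 times as high in KO at dpi2 and 1.31 times at dpi4, higher in 9 of 9 and 7 of 7 bins of the marker order. Within clusters it was higher in 3 of 4 at dpi2 and 5 of 7 at dpi4. The exception at dpi2 was the cluster led by Top2a and Birc5, with 35 KO cells, at 628 CPM in control and 341 in KO.

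Cebpa in macrophages was 1.05 times as high in KO at dpi2, and higher in all 4 clusters there (log2 0.08 to 0.47). Of 9 bins of the marker order at dpi2, however, 2 had an interval above 1 and 3 below. At dpi4 it was 1.24 times as high and higher in all 7 clusters (log2 0.17 to 0.56). Spi1 was level at dpi2 (ratio 0.989) and 0.810 times as high in KO at dpi4, and lower in all 7 clusters there (-0.39 to -0.06). Irf8 in dpi2 macrophages was 0.826 times as high in KO and lower in 4 of 4 clusters, and at dpi4 its ratio was 0.968. Irf4 ratios had intervals across 1 on both days.

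In monocytes, 0 of 9 members passed at dpi2, where 11.6% of all genes did, and 2 of 9 passed at dpi4, where 10.2% did. The dpi4 pair rests on 51 control and 69 KO cells. Maf was at 389.7 CPM in control and 619 CPM in KO on 202 and 357 UMIs, a ratio of 1.59 (1.33 to 1.90), and Runx3 at 255 and 144 CPM on 132 and 83 UMIs, a ratio of 0.565 (0.424 to 0.749). The summed macrophage markers of these cells also differed, at 14010 CPM in control and 8768 CPM in KO, and so did the monocyte markers, at 5724 and 7197 CPM, and the part of this in the 2 ratios was not tested. Maf lost 1.5-fold with a separate clustering of every library (0.28) and on pooling with macrophages (0.39), and Runx3 with a mitochondrial limit of 20% (-0.50) and on pooling (-0.17).

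In Cd209a dendritic cells, 1 of 9 members passed at dpi2, where 9.27% of all genes did. Irf4 was at 33.8 CPM in control and 61.7 CPM in KO on 106 and 213 UMIs, a ratio of 1.83. It kept 1.5-fold under all 6 other settings that gave this ratio. With each library clustered by itself there was no such class in control dpi2, where a cluster of 328 cells led by Cd209a stayed unnamed. Cebpb, at 411 and 613 CPM, was 1.49 times as high in KO, just under the rule. At dpi4 0 of 9 passed (4.77% of all genes), and Irf4 was at 33.7 CPM in both. Over time, 3 of 9 members passed in control (25.2% of all genes) and 5 of 9 in KO (22% of all genes), with Cebpa, Irf8 and Maf higher at dpi4 in both, but with clusters at resolution 0.5 Irf8 in control and Maf in KO turned to -0.13 and -0.15. At that resolution Cebpa in both genotypes (0.12 and 0.38) and Maf in control (0.45) also lost 1.5-fold, and Irf8 in control lost it with a mitochondrial limit of 20% (0.48). The other 2 calls in KO were Klf2, higher by 0.61 and lost under 4 of 6 settings (down to 0.23), and Irf4, at -0.87 and lost under 2 of 6. The 10 macrophage markers in these cells summed to 791 CPM in control and 967 CPM in KO at dpi2 and to 10089 and 6741 CPM at dpi4, with 0 of 10 at 0, and their part in these ratios was not tested.

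In neutrophils the median gene was lower in KO by 0.30 at dpi2 on the log2 scale and by 0.12 at dpi4, so members are read against it. Runx3 was the 1 of 9 members past 1.5-fold at dpi2 (26.5% of all genes), at 42.5 CPM in control and 24.1 CPM in KO on 65 and 68 UMIs. Its log2 ratio of -0.82 became -0.51 relative to the median gene, which is under the rule. Cebpb (0.09) and Spi1 (0.17) were at 0.39 and 0.47 relative to it. At dpi4, with 36 KO neutrophils, 3 members held enough UMIs and 0 of 9 passed (13.1% of all genes). Between days, the median gene was 0.19 higher at dpi4 in control and 0.31 higher in KO. In control 2 of 9 members passed (29.9% of all genes), Runx3 at 1.21 and Cebpb at -0.62, and in KO 3 of 9 (24.8%), Spi1 at 0.59, which is 0.28 relative to the median gene, and Klf4 and Maf at 1.81 and 1.88 on only 7 and 16 UMIs at dpi4. The call of Maf was lost under 3 of 8 other settings, down to 0.52. Relative to the median gene, Runx3 and Cebpb in control were at 1.02 and -0.81, and Klf4 and Maf in KO at 1.49 and 1.57. Cebpb in KO, not called, went from -0.44 to -0.75. Klf2, called in neither, went from -0.55 to -0.74 in control and from -0.27 to -0.59 in KO. Macrophage markers in these neutrophils summed to 619.9 CPM in control and 512 CPM in KO at dpi2 and to 3157 and 3376 CPM at dpi4, and their part in these ratios was not tested.

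Among other genes of the same families, a list of 24 of which 23 matched, the PU.1 relative Spic stood out in size. Spic, known for red pulp macrophages and heme handling, was at 1.78 CPM in control and 78.5 CPM in KO macrophages at dpi2, and at 13.8 and 229 CPM at dpi4, while Spi1 itself had ratios of 0.989 and 0.810. In monocytes Spic was at 5.84 and 184 CPM at dpi2 and at 11.6 and 262 CPM at dpi4, on 6 control UMIs at the later day. The small Maf protein gene Maff was 2.45 times as high in KO macrophages at dpi2 and 1.86 times in monocytes. Irf7, an interferon-induced factor, was 0.330 times as high in KO macrophages and 0.412 times in KO monocytes at dpi2.

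Counted whole, the family list had 2 genes higher and 1 lower of 22 with enough UMIs in macrophages at dpi2, where 11.1% of all genes passed, and 1 higher and 0 lower at dpi4, where 7.58% did. Its median log2 ratio was 0.13 and 0.08, against -0.02 and 0.02 over all genes. In monocytes it had 3 higher and 2 lower of 22 at dpi2 (median -0.02 against -0.02, with 11.6% of all genes past the rule) and 2 higher and 0 lower of 17 at dpi4 (0.17 against 0.02, with 10.2%). The monocyte calls at dpi2 included Klf7, at 1.87 times.

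Of 15 other regulators of myeloid fate, 3 were higher and 2 lower of 13 in KO macrophages at dpi2 (11.1% of all genes), with a median of 0.20 against -0.02 over all genes. The higher ones were Tfec (2.38 times), Nr4a1 (2.32 times) and Egr1 (1.73 times). Pparg, a lipid-sensing nuclear receptor of macrophages, was 0.527 times as high. At dpi4 Tfec was again higher (1.95 times) and Batf3 (0.563 times) and Egr2 (0.667 times) lower of 13 (7.58% of all genes), with a list median of 0.13 against 0.02. In monocytes 1 was higher and 2 lower of 13 at dpi2 (median 0.14 against -0.02, 11.6% of all genes), with Tfec at 2.88 times and Pparg at 0.478 times, and 1 higher and 2 lower of 9 at dpi4 (median 0.09 against 0.02, 10.2% of all genes).

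Of 14 textbook targets of the 9 factors, 4 were higher and 1 lower of 13 in KO macrophages at dpi2 (11.1% of all genes), with a median of 0.30 against -0.02 over all genes. Cd163, the scavenger receptor for hemoglobin complexes, was 2.92 times as high, Il10, a cytokine gene that c-MAF is known to drive, 2.48 times, and Il6 10.2 times but at 0.557 and 5.69 CPM. S1pr1, a KLF2 target in lymphocytes, was 1.86 times as high at dpi2 and 2.30 times at dpi4, while Klf2 was higher in KO on the first day and lower on the second. At dpi4 1 target was higher and 1 lower of 13 (7.58% of all genes), and the median was -0.06 against 0.02. In monocytes 3 were higher and 2 lower of 13 at dpi2 (median 0.22 against -0.02, 11.6% of all genes) and 2 higher and 0 lower of 9 at dpi4 (0.04 against 0.02, 10.2% of all genes). Csf1r, Csf2ra, Itgam, Cd68 and Msr1, myeloid receptor and surface genes on this list that were named after their values were seen, passed on neither day in either class. Other receptor genes on the list did pass at dpi2 in both classes, with Fcgr1 lower and Cd163 and S1pr1 higher in KO.

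Over time, 7 of 13 other regulators were higher at dpi4 and 0 lower in control macrophages (35.4% of all genes), with a median of 0.70 against -0.08 over all genes, among them Batf3 (3.17 times) and Tfec (2.01 times). In KO macrophages 3 were higher and 2 lower of 13 (32.6% of all genes, median 0.35 against -0.05). The family list had 3 higher and 3 lower of 22 in control and 4 higher and 1 lower of 22 in KO, against the same shares of all genes. The targets had 3 higher and 5 lower of 13 in control (median -0.39) and 2 higher and 7 lower of 13 in KO (median -0.92), against the same shares and medians of all genes.

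The genes closest in pattern to each member were sought over 29 sums of a class in a library, by the Pearson correlation of log2(CPM + 5) among 10019 genes. These sums share libraries and cell classes, and the values describe them only. Spi1 ran closest with Csf2ra and Pirb (r of 0.94 for both), Cebpa with Dnase1l1 and Grn (0.93 for both), Cebpb with Ccr1 and Cd300lf (0.96 for both) and Klf4 with Dusp3 and Sh3bgrl (0.93 for both). Irf4 ran closest with Mgl2 (0.87) and Cd209a (0.85), a marker of a dendritic cell class. Maf ran with Cmklr1 and Dennd1a (0.87 for both), Runx3 with Coro2a (0.88) and Klrk1 (0.86), an activating receptor gene of NK cells, Klf2 with Hic1 (0.85) and Nudt4 (0.84), and Irf8 with Tbca (0.81) and Hnrnpul2 (0.80). Among the members themselves the largest positive values were Cebpa with Klf4 (0.57) and with Maf (0.56), and the largest negative ones were Cebpb with Irf8 (-0.68) and Irf8 with Klf2 (-0.66).

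By position, the members lie on 5 chromosomes of GRCm38, with Spi1 (chr2:91082390-91115756) and Cebpb (chr2:167688915-167690418) on chromosome 2, and Irf8, Klf2 and Maf on chromosome 8. Reads of 4 members could be split with genes that overlap them in the files: Tmem189 with Cebpb, Gm20388 with Irf8, Gm15655 with Maf and Gm16224 with Runx3. Gm20388 lies on the same strand as Irf8, while Tmem189, Gm15655 and Gm16224 lie on the strand opposite to their member. Overlap on the opposite strand matters only if the counting ignored strand. That setting is not given in the sources used here, so the counts of Cebpb, Maf and Runx3 are uncertain to that extent. The count of Irf8 is uncertain under either setting.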

How the data were processed

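CD45+ cells of injured tibialis anterior were profiled in 4 10x Genomics 3′ libraries, 1 per genotype and day (the labels and the study's methods name different kit versions). The deposited matrices hold raw UMI counts that the authors obtained with Cell Ranger 6.1.2 on mm10, for 27998 genes and barcodes with at least 500 UMIs. Other steps of the study (miQC, scDblFinder, Harmony, SingleR, Wilcoxon tests) are not in these counts. All values below were computed from them.

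Cells were kept with under 10% mitochondrial UMIs and at least 500 genes, and the highest doublet scores (0.8% per 1000 cells, 100 to 289 barcodes per library) were removed. The 2000 variable genes, without the 66 members, list and check genes, gave 30 principal components, a graph of 15 neighbours and 27 Leiden clusters at resolution 1 (scanpy 1.11.5, igraph 0.11.9). Clusters were named from 87 fixed markers, 83 of them matched, and 1 group of clusters stayed unnamed (111 to 545 cells per library).

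UMIs were summed per class and library as CPM. Intervals are exact at 95% (Poisson for CPM, conditional binomial for ratios, Clopper-Pearson for shares) and hold for counting error alone. Where no UMI was seen, the limit is that of 3 counts. The fold of 1.5 is the size the study used for its own comparisons. Names from lists are at most the 4 largest called ratios per list, class and day. Exceptions are Fcgr1 and the targets said to be named after their values were seen. Of the fixed list genes, 1 is not reported here. Members and lists were chosen with earlier results of these data known. The steps were tested on simulated counts (numpy 2.4.6, scipy 1.17.1, pandas 2.3.3). The comparisons share libraries with each other. Gene positions are from GENCODE on GRCm38, which is the assembly of mm10. Alternatives tried were other limits on cells, clusterings, scalings, thresholds and pooled classes.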

Additional observations from a re-analysis of the deposited data

Results flagged for a closer look

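For 3 gene and class pairs, the ratio of KO over control had an interval above 1 at dpi2 and below 1 at dpi4, so that the libraries of the 2 days went opposite ways. The difference between days was not tested, since each group is 1 library. Runx3 in monocytes had a log2 ratio of 0.33 at dpi2 and -0.82 at dpi4, the latter on 51 and 69 cells. Klf2 in macrophages had 0.33 at dpi2 and -0.59 at dpi4, but at dpi2 its 4 clusters ran from -0.80, past 1.5-fold, to 0.21, and of 9 bins of the marker order 4 had an interval above 1 and 2 below. Runx3 in macrophages had 0.24 at dpi2 and -0.16 at dpi4, both under 1.5-fold. In single macrophage clusters Runx3 was not uniform on either day, at -0.64 to 1.81 at dpi2 and -0.52 to 0.52 at dpi4.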

How the results depend on the processing

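No paired analysis was possible because the groups compared share fewer than 2 replicate numbers. Of the members' 6 calls of KO over control in monocytes and macrophages, 0 kept 1.5-fold under all 8 other settings tried. Between days 4 of 12 did, and these 8 settings include the pooling of both classes. Between macrophages and monocytes, where pooling cannot apply, 12 of 19 kept it under all 7 settings, so these counts are not on 1 footing. Pooling both classes ended 5 of the 6, and for Cebpb and Klf4 in macrophages at dpi2 no other setting did. Apart from pooling, the numbers of such calls stayed within 4 to 8, 11 to 17 and 18 to 22. Directions of calls past 1.5-fold turned in 4 cases: with clusters at resolution 0.5, Irf8 in control Cd209a dendritic cells over time (-0.13) and Maf in KO ones (-0.15), and with monocytes and macrophages pooled, Maf in control monocytes over time (0.0020) and Runx3 in KO macrophages over time (-0.070). The cause was not tested. Over all genes, calls of KO over control went from 1178 to 462 in monocytes at dpi2 at 2-fold in place of 1.5-fold, from 336 to 81 in monocytes at dpi4, from 1233 to 494 in macrophages at dpi2 and from 907 to 292 in macrophages at dpi4, by construction. With at least 200 UMIs per pair, fewer genes were tested, and 79 were called in monocytes and 521 in macrophages at dpi4. Depth limits Irf4 in the macrophage lineage and neutrophils and monocytes at dpi4.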

Other observations

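A cluster that stayed unnamed, led by Pdcd1lg2 and Il1f9, held 85 control and 517 KO cells at dpi2. With its cells added to the neutrophils, an alternative chosen after the data were seen, the log2 ratio of Runx3 in neutrophils at dpi2 was -1.10. Irf8 reached its highest level of all classes in plasmacytoid dendritic cells, at 7 to 25 cells per library, where Irf4 was at 239, 114, 80.3 and 44.6 CPM in control dpi2, KO dpi2, control dpi4 and KO dpi4. In NK cells at dpi4, Klf2 was at 129 CPM in control (39 cells) and 52.0 CPM in KO (79 cells), a log2 ratio of -1.30. The 5 T cell markers in these cells summed to 215 CPM in control and 113 CPM in KO, T cells themselves held 124 and 193 CPM of Klf2 at dpi4, and the part of this in the ratio was not tested. Cre under the Lyz2 promoter is not directed at these cells, and no test of the difference was run, with 1 library per group.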
